A study of Mus musculus with 8 samples.

Results

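The miR-125 and miR-99/100 families were examined in Kupffer cells, which are liver-resident macrophages, of Trem2 knockout mice and their wild-type littermates. Entries of the deposited table were taken when their name began with mmu-miR-125a, mmu-miR-125b, mmu-miR-99a, mmu-miR-99b or mmu-miR-100, whatever the arm or suffix, which gave 10 of 1234 entries. Small RNA libraries came from 4 Trem2-/- (KO) and 4 wild-type (WT) male mice, each library from 1 separately numbered animal. The KO animals were 40, 46, 88 and 90, and the WT animals were 35, 37, 80 and 82. High-fat feeding began when the mice were 8 weeks old and lasted 8 weeks in both genotypes, so there was no group on another diet. The cells were sorted by flow cytometry and 1 µg of total RNA went into each library. The deletion itself could not be checked, because small RNA libraries do not measure Trem2 mRNA.

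A miRNA is cut from a hairpin precursor whose 5p and 3p arms can each give a mature strand, and the stretch called the seed, near the 5′ end of that strand, pairs with target mRNAs. The miR-125 family is the vertebrate counterpart of lin-4 of Caenorhabditis elegans. In macrophages miR-125b has been described as a repressor of Irf4, a transcription factor, and of Tnf, which encodes an inflammatory cytokine. The miR-99/100 family is known for repressing Mtor and Igf1r, genes of growth signalling, and is related to miR-10. In vertebrates the families lie together in clusters with a let-7 gene between them.

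The mature 5p sequences are shown because the results turn on which of them can be told apart. They are from RefSeq (GRCm38.p6), 5′ to 3′, with the seed (bases 2 to 8) in capitals, and the RefSeq table held a mature sequence for each of the 10 entries.
miR-125a-5p: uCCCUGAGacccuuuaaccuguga
miR-125b-5p: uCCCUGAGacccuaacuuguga
miR-99a-5p: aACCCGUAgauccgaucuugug
miR-99b-5p: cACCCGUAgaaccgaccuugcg
miR-100-5p: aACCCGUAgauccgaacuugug
The miR-125 strands share the seed CCCUGAG and the miR-99/100 strands share the seed ACCCGUA. Counted from the 5′ end without gaps, miR-99a-5p and miR-100-5p had the same base at 21 of 22 positions, and miR-99b-5p matched either of them at 18 of 22. Their relatives miR-10a-5p and miR-10b-5p carry the seed ACCCUGU.

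The genes form 3 clusters, given here in GRCm38 coordinates of GENCODE M21. On chromosome 17, Mir99b (chr17:17830188-17830257), Mirlet7e (chr17:17830352-17830444) and Mir125a (chr17:17830812-17830879) lay within 692 bases on the plus strand. Mir99b and Mirlet7e fell in introns of the protein-coding gene Spaca6, and Mir125a overlapped an annotated exon of it. On chromosome 16, Mir99a (chr16:77598936-77599000), Mirlet7c-1 (chr16:77599657-77599750) and Mir125b-2 (chr16:77646273-77646343) spanned 47408 bases in introns of the non-coding host transcript Mir99ahg. On chromosome 9, Mir100 (chr9:41531425-41531504), Mirlet7a-2 (chr9:41536716-41536811) and Mir125b-1 (chr9:41581926-41582002) spanned 50578 bases inside the non-coding gene Mir100hg of RefSeq. The authors' genome build is not given in the sources used here.

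No entry held the miR-100-5p sequence itself. The entries named miR-99a-5p_R-1 and miR-100-5p_R-1_1ss16AT carried 1 and the same sequence of 21 bases, which is that of miR-99a-5p without its last base. Against RefSeq miR-100-5p it has the substitution A16U, counted from the 5′ end. The position that differs is in capitals below.
RefSeq miR-99a-5p: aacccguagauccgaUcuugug
RefSeq miR-100-5p: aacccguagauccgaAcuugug
deposited sequence of both entries: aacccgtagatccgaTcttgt
The first 16 bases of miR-100-5p occurred in 0 entries, and those of miR-99a-5p in these 2. The values of both entries were equal in 8 of 8 libraries, and their sum was a whole number in 8 of 8, as when reads are divided equally between names. They are therefore treated below as 1 shared miR-99a/100 sequence whose level is the sum of both entries, and no level can be given for miR-100. The miR-125b-5p entry held values that were not whole in 6 of 8 libraries although no other entry had its sequence. Reads may thus have been divided with a name outside the table used here, and its level may be too low. Its sequence is also identical at both Mir125b loci.

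Total expected counts were 2129942 to 6465609 in KO libraries and 2573618 to 9443992 in WT libraries. The 10 entries took 0.830% (Wilson 95% interval 0.821 to 0.839) to 1.55% (1.54 to 1.57) of the counts in KO libraries, and 1.11% (1.10 to 1.13) to 1.96% (1.95 to 1.98) in WT libraries. These intervals, like the others below, cover counting error only. Myeloid miRNAs chosen to check the cell type (miR-142a, miR-223, miR-146a, miR-155, miR-511 and miR-342) were all found, and their 11 entries summed to between 91606 and 169299.8 CPM. CPM are counts per 1000000, scaled with the TMM method. Summed hepatocyte markers set 2 libraries apart, at 48663 CPM in KO 40 and 148177 CPM in WT 37, against 10859.9 to 18755 CPM in the other 6. The genotype differences of the 5p arms and of their ratios are also given without either library.

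The 5p arms were well expressed and the 3p arms were rare. By mean CPM among the 627 entries that passed the filter on low counts, miR-125a-5p ranked 42, each entry of the shared miR-99a/100 sequence 51.5, miR-99b-5p 54 and miR-125b-5p 78. The tested 3p arms ranked between 389 and 607. Counts of different sequences compare reads and not molecules, since library preparation does not capture all sequences equally.

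The shared miR-99a/100 sequence stood at 5008, 5459, 5780.3 and 6102 CPM in KO libraries 40, 46, 88 and 90, and at 6468, 6524, 4222 and 4844 CPM in WT libraries 35, 37, 80 and 82. It was the highest sequence of the families in 6 of 8 libraries, the exceptions being WT 80 and WT 82. In those 2 libraries miR-125a-5p was higher.

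The level of miR-125a-5p was 1674, 1821, 3909 and 4738 CPM in KO libraries 40, 46, 88 and 90. In WT libraries 35, 37, 80 and 82 it was 2862, 2273, 5238 and 5303 CPM. The libraries of animals 80 to 90 lay above those of animals 35 to 46 in either genotype, and KO and WT overlapped.

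The level of its cluster partner miR-99b-5p was 1999, 2820.3, 2263 and 2594 CPM in KO libraries and 2896, 2869, 2691 and 3058 CPM in WT libraries, in the same order of animals. KO 46 lay above WT 80, so these groups overlapped too. The order of miR-125a-5p and miR-99b-5p depended on the animal number: miR-125a-5p was the higher in 4 of 4 animals numbered 80 to 90 and the lower in 4 of 4 numbered 35 to 46.

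The least abundant 5p arm was miR-125b-5p, with 803, 832, 1046 and 1201 CPM in KO libraries and 1145, 1139, 1526 and 2480.5 CPM in WT libraries. WT 82 stood above the others, and KO 90 lay above WT 35 and WT 37. It was the lowest of the 5p sequences in each of the 8 libraries.

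**Figure D1:**
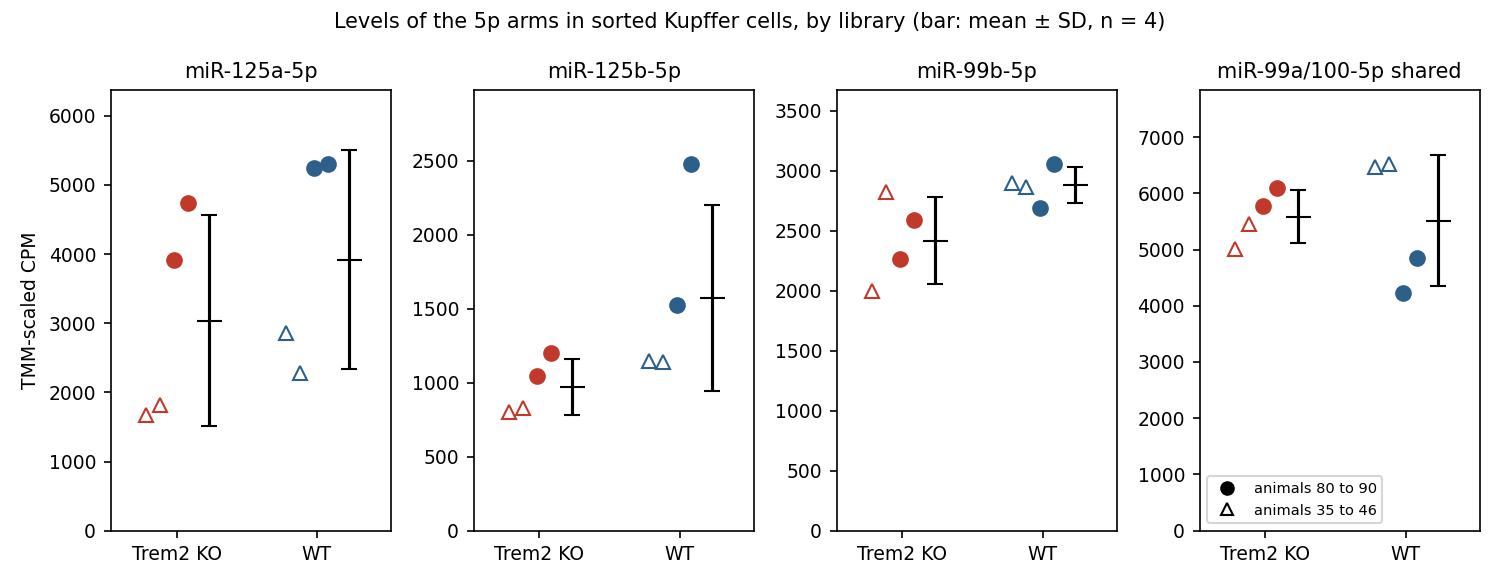
Levels of the 5p arms in TMM-scaled CPM in each library of Trem2 KO (red) and WT (blue) mice, with the mean and SD over 4 libraries; filled circles are animals 80 to 90 and open triangles animals 35 to 46. The genotypes overlap in each panel, and for miR-125a-5p the filled circles (3909 to 5303 CPM) lie above the open triangles (1674 to 2862 CPM).

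The genotypes were compared to ask whether these miRNAs depend on Trem2, a lipid-sensing receptor of macrophages, under a high-fat diet. No member rose or fell past the threshold, an adjusted p of 0.05 in edgeR's quasi-likelihood test of genotype alone. Of 9 tested member entries, 8 of them with different sequences, 0 passed, against a background of 0% of 627 entries in either direction. At an unadjusted p under 0.05 there were 2 of the 627 entries (0.319%) in edgeR, 6 with DESeq2 and 3 with limma-trend, and both of the last also called 0. The test of genotype alone counts differences between the animal number ranges as spread. Its common dispersion, edgeR's measure of spread between libraries, was 0.58, against 0.28 with the range added. A count of 0 is therefore no evidence that the genotypes are alike. Of the tested member entries 4 were lower and 5 higher in KO, with a median log2 difference of 0.02, against -0.04 over all tested entries.

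Among the 5p arms, miR-125b-5p had the largest difference, with means of 970.3 ± 188 CPM in KO and 1573 ± 632 CPM in WT (SD, n = 4 each). Its log2 difference, KO minus WT, was -0.70 ± 0.34 (SE; 95% interval -1.45 to 0.06; edgeR adjusted p 0.997). The mean of miR-125a-5p was 3035 ± 1526 CPM in KO and 3919 ± 1579 CPM in WT, a log2 difference of -0.37 ± 0.44 (95% interval -1.35 to 0.61; edgeR adjusted p 0.997). For miR-99b-5p the means were 2419 ± 362 CPM in KO and 2879 ± 150.5 CPM in WT, and the log2 difference was -0.25 ± 0.25 (95% interval -0.80 to 0.30; edgeR adjusted p 0.997). The shared miR-99a/100 sequence averaged 5587 ± 467 CPM in KO and 5515 ± 1162 CPM in WT, a log2 difference of 0.02 ± 0.26 (95% interval -0.57 to 0.61; edgeR adjusted p 0.997). These intervals leave room for differences in either direction. Without WT 37 the log2 difference was -0.81 for miR-125b-5p, -0.55 for miR-125a-5p and -0.24 for miR-99b-5p, and without KO 40 it was -0.62, -0.17 and -0.17 in that order. For the shared miR-99a/100 sequence it was 0.13 without WT 37 and 0.08 without KO 40. Without WT 82 that of miR-125b-5p was -0.39, so this 1 library moved it most. Where cells were sorted and pooled in bulk, a change in the make-up of the sorted cells and a change in RNA per cell cannot be told apart.

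Within the animal number ranges the 5p arms of the chromosome 17 cluster and miR-125b-5p lay lower in KO by TMM-scaled CPM. On that scale, in animals 35 to 46 and again in animals 80 to 90, each KO library was below each WT library for miR-125a-5p, miR-125b-5p and miR-99b-5p. This held for 3 of 9 tested member entries, beside a background of 3.35% of the 627 entries; the opposite order, with KO above WT in both ranges, was seen in 1.28%. For miR-125b-5p it is no independent support, because the miRNA had been singled out for its small p in these libraries. For miR-125a-5p and miR-99b-5p the order depends on the TMM scaling. As a share of unscaled library totals, miR-99b-5p was higher in KO 46 (6242 of 2129942 counts) than in WT 37 (7045 of 2830978). By that share both miRNAs were higher in KO 88 than in WT 80. With TMM the margin of miR-99b-5p was small, at 2820.3 CPM in KO 46 against 2869 CPM in WT 37. Over all 4 libraries a genotype, 0 of 9 separated, against 0.478% of entries with KO below WT and 0.319% with KO above WT. With the number range as a further term in the edgeR model, the log2 difference was -0.66 ± 0.21 for miR-125b-5p (unadjusted p 0.00976), -0.42 ± 0.18 for miR-125a-5p (0.0397) and -0.25 ± 0.18 for miR-99b-5p (0.195). The edgeR adjusted p was 0.946 for each of these, and 0 of 627 entries passed in that fit, with 17 (2.71%) at an unadjusted p under 0.05. The shared miR-99a/100 sequence did not follow: KO lay below WT in animals 35 to 46 and above WT in animals 80 to 90, an order seen in 2.55% of the 627 entries. Its interaction of genotype with range did not pass (edgeR adjusted p 0.930), and 0 of 627 entries did, with 4.78% at an unadjusted p under 0.05.

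**Figure D2:**
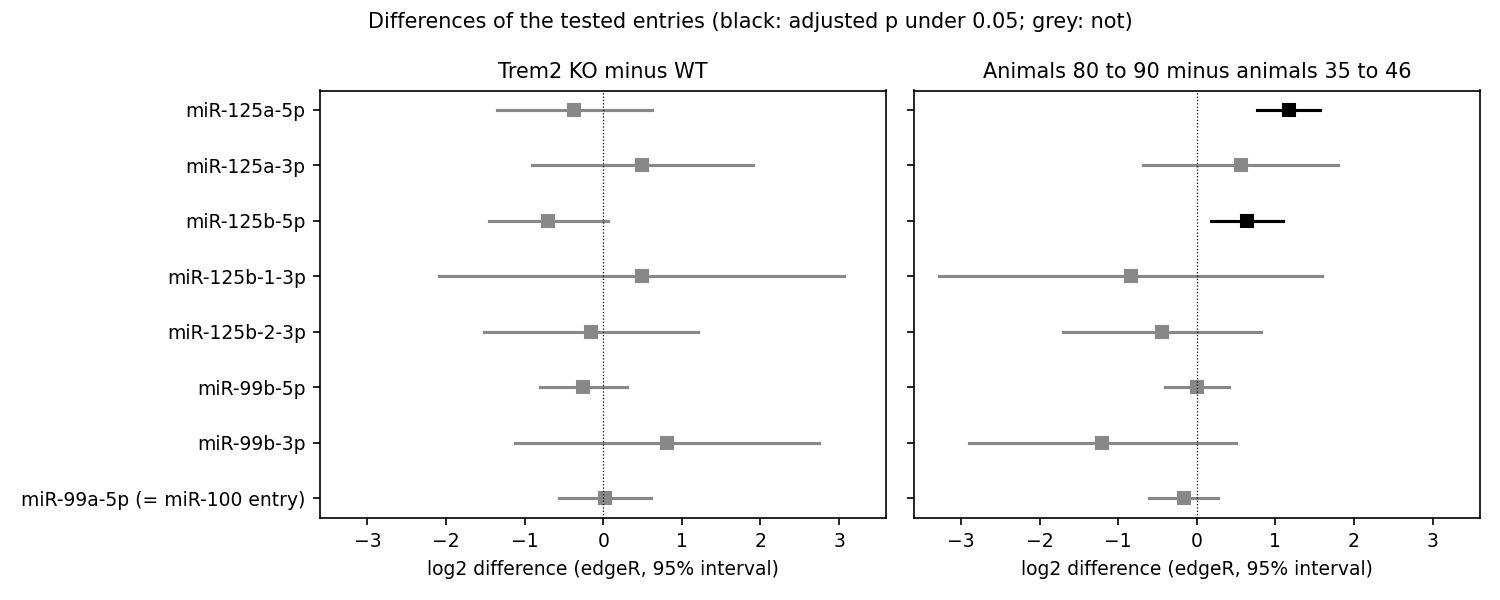
Log2 differences of the tested entries with 95% intervals from edgeR, KO minus WT on the left and animals 80 to 90 minus animals 35 to 46 on the right; black marks an adjusted p under 0.05. No interval on the left excludes 0, and on the right miR-125a-5p (1.17) and miR-125b-5p (0.63) are black.

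Cluster partners were then set against each other, to ask whether miRNAs encoded within 1 cluster kept their ratio. A ratio within a library needs no scaling between libraries. For miR-125a-5p over miR-99b-5p the ratios of counts were 0.837, 0.646, 1.73 and 1.83 in KO libraries 40, 46, 88 and 90, against 0.989, 0.792, 1.95 and 1.73 in WT libraries 35, 37, 80 and 82. The genotypes overlapped, and the log2 ratio averaged 0.19 ± 0.75 in KO and 0.35 ± 0.63 in WT (SD, n = 4 each; difference -0.16, exact two-sided permutation p 0.629). The difference was -0.0083 without KO 40 and -0.39 without WT 37, and its sign turned without KO 46 (0.12) or WT 80 (0.05).

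For miR-125b-5p over the miR-99a-5p entry the ratios were 0.321, 0.305, 0.362 and 0.394 in KO libraries, and 0.354, 0.349, 0.723 and 1.02 in WT libraries. That entry holds only its equal part of the shared miR-99a/100 reads, 8312.5 of 16625 counts in KO 40. Ratios to the whole shared sequence are lower by the same factor in each library, which leaves log2 differences unchanged. KO 88 and KO 90 lay above WT 35 and WT 37, so the groups overlapped. The log2 ratio averaged -1.54 ± 0.17 in KO and -0.86 ± 0.77 in WT (SD, n = 4 each; difference -0.68, exact two-sided permutation p 0.200). Without KO 40 the difference was -0.65, and without WT 37 it was -0.90. In animals 80 to 90 the difference was -1.19 and in animals 35 to 46 it was -0.17. With genotype permuted within the ranges the exact p was 0.0556, the smallest that the 36 assignments allow.

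The ratio of miR-125b-5p over miR-125a-5p, which share a seed and no cluster, differed by -0.22 on the log2 scale (exact two-sided permutation p 0.486, n = 4 each); it was 0.06 in animals 35 to 46 and -0.50 in animals 80 to 90, and -0.37 without KO 40 and -0.12 without WT 37. Of the 3 ratios tested, adjusted p-values over these were 0.600 to 0.629 in the same exact test. The ratio of miR-125b-5p over the miR-100 entry repeats that over miR-99a-5p, and miR-99a-5p over miR-100-5p is fixed by the shared values, so neither was tested.

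**Figure D3:**
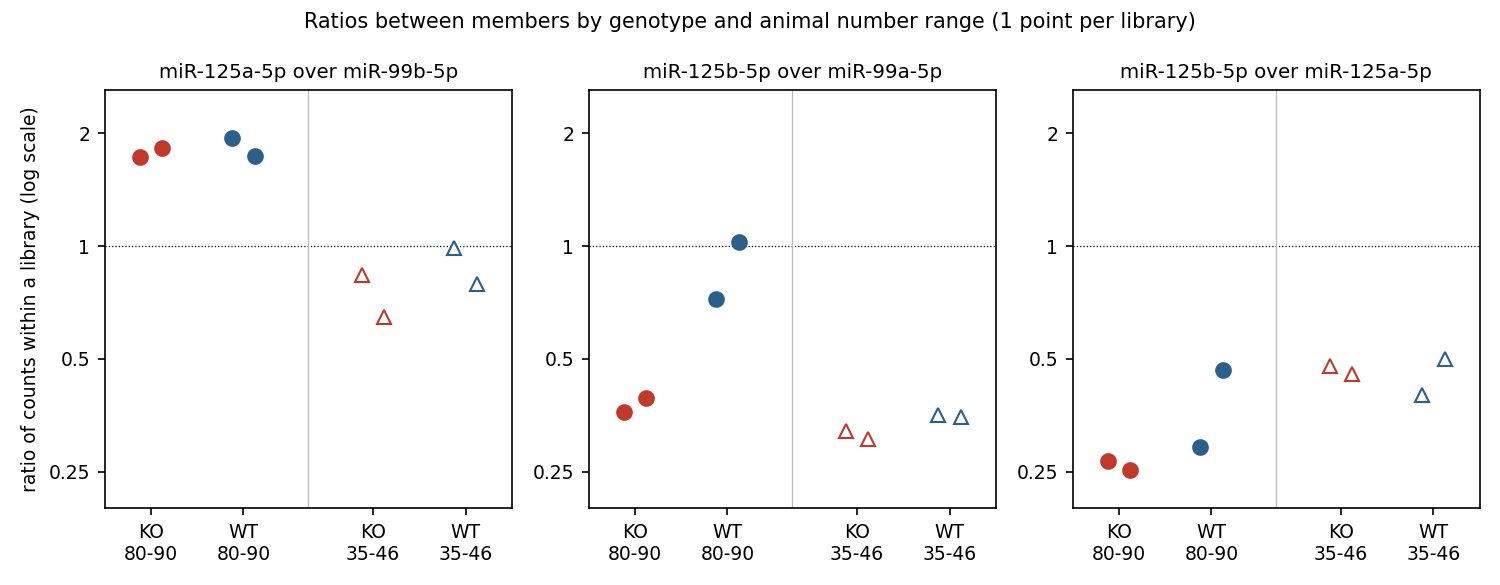
Ratios of expected counts within each library on a log axis, by genotype (KO red, WT blue) and animal number range (80 to 90 left of 35 to 46 in each panel), with 1 point per library. The ratio of miR-125a-5p over miR-99b-5p is 1.73 to 1.95 in animals 80 to 90 and 0.646 to 0.989 in animals 35 to 46.

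The libraries were also compared between the ranges of the animal numbers, 80 to 90 and 35 to 46, each with 2 KO and 2 WT mice. The labels do not say that the range is a batch or what else it marks. In animals 80 to 90 miR-125a-5p rose by 1.17 ± 0.18 on the log2 scale (SE; edgeR adjusted p 0.00138), to 4797 ± 644 CPM against 2158 ± 535 CPM in animals 35 to 46 (SD, n = 4 each). In the same animals miR-125b-5p rose by 0.63 ± 0.21 (edgeR adjusted p 0.0390), to 1563 ± 643 CPM against 979.9 ± 188 CPM. The 2 calls are 2 of 9 tested member entries, and 16.6% of the 627 entries were called higher and 15.8% lower. A share of that size is near the background and is no result about the families. For miR-125a-5p the ranges did not overlap, as for 21.4% of the 627 entries that lay higher and 19.8% that lay lower in animals 80 to 90. The call for miR-125a-5p held with each of the 8 libraries left out in turn (edgeR adjusted p at most 0.00912), while in WT libraries alone, 2 against 2, the difference was 1.03 with an edgeR adjusted p of 0.115. The call for miR-125b-5p was lost without KO 40, KO 46, KO 90, WT 35, WT 37 or WT 82, each left out alone, with edgeR adjusted p-values of 0.0663, 0.0809, 0.0961, 0.0856, 0.103 and 0.0843.

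The miR-99/100 strands did not follow their cluster partners between the ranges. For miR-99b-5p the means were 2651 ± 327 CPM in animals 80 to 90 and 2646 ± 433 CPM in animals 35 to 46, a log2 difference of 0.00 ± 0.18 (95% interval -0.40 to 0.41; edgeR adjusted p 0.987). The miR-99a-5p entry had a log2 difference of -0.17 ± 0.20 (95% interval -0.61 to 0.27; edgeR adjusted p 0.545). The difference between partners was tested on the ratio itself. The log2 ratio of miR-125a-5p over miR-99b-5p averaged 0.85 ± 0.08 in animals 80 to 90 and -0.31 ± 0.25 in animals 35 to 46 (SD, n = 4 each), a 2.24-fold higher ratio. The ranges did not overlap, and the exact two-sided permutation p was 0.0286, the smallest that 4 against 4 libraries allow (0.0429 adjusted over the 3 ratios). The comparisons of ratios between ranges were added after seeing the data, in which miR-125a-5p separated the ranges and miR-99b-5p did not. Their p-values are therefore no independent support. How often ratios of other entries separate the ranges was not examined. With the range permuted within genotypes the exact p was 0.0556, again the smallest possible.

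The ratio of miR-125b-5p over the miR-99a-5p entry was also higher in animals 80 to 90, by 0.78 on the log2 scale (exact two-sided permutation p 0.0286 with n = 4 each; 0.0556 within genotypes). Much of that rested on WT 80 and WT 82, since KO 88 at 0.362 barely exceeded WT 35 at 0.354, and the difference was 0.50 without WT 82. The exact p was 0.143 to 0.171 without KO 40, KO 46, WT 35 or WT 37, each left out alone. For miR-125b-5p over miR-125a-5p the difference was -0.56 (exact two-sided permutation p 0.0857), and without WT 82 it was -0.76 (exact permutation p 0.0286).

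The let-7 strands were read beside them. In animals 80 to 90 let-7e-5p, encoded between Mir99b and Mir125a, rose by 1.18 ± 0.22 on the log2 scale (edgeR adjusted p 0.00321), close to the 1.17 of miR-125a-5p. Its levels were 161, 144, 425 and 409.9 CPM in KO libraries and 178, 141, 272 and 326 CPM in WT libraries, in the same order of animals as above. Animals 80 to 90 were above animals 35 to 46 without overlap. The 3p arm of let-7e had a log2 difference of 1.47 ± 0.95 and did not pass (edgeR adjusted p 0.249), and let-7c-1-3p, from the chromosome 16 cluster, was too rare to be tested. Of 7 tested entries named let-7e, let-7c or let-7a, 5 rose and 0 fell between the ranges, beside a background of 16.6% higher and 15.8% lower, and 0 passed between genotypes. These 7 do not stand for the genes between the partners, because 2 of them, with log2 differences of 0.42 and 0.88, are let-7c-2-3p from Mirlet7c-2, outside the 3 clusters. Those that rose included let-7c-5p at 1.43 ± 0.23 and let-7a-5p at 2.18 ± 0.24 (edgeR adjusted p 0.00158 and 0.000218), both of which also come from loci outside these clusters. The risen let-7a-5p and an entry listed under let-7c-5p with a substitution have 1 sequence and equal values, so they count as 1. Of 3 tested miR-10a and miR-10b entries 0 passed in either comparison, and miR-10a-5p had a log2 difference of -0.64 ± 0.26 between the ranges (edgeR adjusted p 0.0864).

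Some marker miRNAs of other cell types also differed between the ranges, and their part in these results was not tested. Summed stellate or mesenchymal markers (6 of 6 found) were 3729 to 4261 CPM in animals 80 to 90 and 6343 to 8881 CPM in animals 35 to 46. Most of that sum was miR-143-3p, at 2516 to 3096 CPM and 4663 to 7490 CPM in the same order. The miR-214-3p entry went the other way, at 79.9 to 183 CPM and 18.5 to 53.1 CPM. Summed hepatocyte markers (6 of 7 found) were 10859.9 to 16175 CPM and 16428 to 148177 CPM in the same order, and erythroid markers (4 of 4) 645 to 2516 CPM and 5061 to 7387 CPM. The largest hepatocyte entry, miR-122-5p, overlapped between the ranges, with 9053 CPM in WT 80 and 8762 CPM in WT 35. The entries of miR-192-5p, miR-194-5p and miR-148a-3p overlapped too. Lower in animals 80 to 90 without overlap was miR-101a-3p (1706 to 2292 against 3564 to 8615 CPM). Among the erythroid entries miR-144-3p overlapped between the ranges and was highest in KO 88, at 549.6 CPM. Epithelial markers (5 of 5) were 405 to 727 CPM against 235 to 359.6 CPM, and lymphocyte markers (3 of 3) 2559.95 to 3853 CPM against 1809 to 2193 CPM. Of the epithelial entries, miR-200c-3p (260 to 483 against 81.8 to 170 CPM) and miR-200b-3p lay higher in animals 80 to 90. The entries of miR-200a-3p, miR-141-3p and miR-429-3p overlapped. The endothelial sum, of miR-126a alone, and the myeloid sum overlapped between the ranges. Even so, 6 of the 11 myeloid entries were called between the ranges in edgeR. Without overlap, miR-142a-5p (21078 to 30261 against 11674 to 16809 CPM), miR-223-3p and miR-342-3p (18514 to 36724 against 7345 to 11050 CPM) lay higher in animals 80 to 90. There miR-511-3p (396 to 565 against 653 to 921 CPM) and miR-146a-3p lay lower, and miR-146a-5p, the largest entry, overlapped. The arms of miR-511 disagreed, since miR-511-5p lay higher in animals 80 to 90 (76.4 to 109 against 33.8 to 63.7 CPM). Unlike the 5p arm, miR-142a-3p overlapped, at 1402 to 2238 against 2003 to 3261 CPM. The most abundant entry of each marker miRNA was above 0 in each library, except miR-802-5p in KO 46 and miR-486b-3p in KO 88 and WT 35; several minor arms were at 0. Between genotypes the endothelial sum was 12264 to 17919 CPM in KO and 15349.6 to 19239 CPM in WT. Within animals 35 to 46 it was lower in KO, as were the 5p arms of miR-125a, miR-125b and miR-99b and the miR-99a-5p entry. How many of all tested entries lay lower in KO in that range alone was not counted. With so few libraries in a range such an order is easily met by chance, and a link to the endothelial sum was not tested. In animals 80 to 90 the endothelial sum overlapped, at 13576 and 17919 CPM in KO against 15349.6 and 18967 CPM in WT. There the 5p arms of miR-125a, miR-125b and miR-99b were again lower in KO, and the miR-99a-5p entry was higher. The share of all tested entries with such orders in that range alone was not counted either.

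Likeness between 2 entries was measured as the SD over the 8 libraries of the log2 ratio of their CPM. This SD is small where they vary together, and also where neither varies much. It is a description without a test, over libraries that share scaling factors. By this measure, over all 8 libraries together, the strands that share a seed had lower SDs than the cluster partners. The SD was 0.28 between miR-99a-5p and miR-99b-5p, which come from different chromosomes, and the count ratio of miR-99b-5p over the miR-99a-5p entry stayed between 0.783 and 1.27 over the 8 libraries. Both of these strands differed little between libraries, at 2111 to 3262 CPM for the miR-99a-5p entry and 1999 to 3058 CPM for miR-99b-5p. Their low SD therefore need not mean that they vary together. The SD was 0.41 between miR-125a-5p and miR-125b-5p. For the cluster partners it was 0.65 between miR-125a-5p and miR-99b-5p and 0.63 between miR-125b-5p and miR-99a-5p. Within the number ranges this order did not hold throughout. In animals 80 to 90 the SD of the log2 count ratio was 0.08 for miR-125a-5p over miR-99b-5p and 0.40 for miR-125b-5p over miR-125a-5p. In animals 35 to 46 these SDs were 0.25 and 0.14. For miR-125b-5p over the miR-99a-5p entry the SD was 0.72 in animals 80 to 90 and 0.10 in animals 35 to 46. Sharing a seed was not needed for a low value, since miR-125b-5p and miR-99b-5p, of different families and clusters, had an SD of 0.43. Seen from miR-99b-5p, the miR-99a-5p entry ranked 8.5 and miR-125a-5p 163 among 393 other mouse entries, whose median SD was 0.73. The SD of let-7e-5p was 0.37 to miR-125a-5p and 0.72 to miR-99b-5p, though Mirlet7e lies between both genes.

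**Figure D4:**
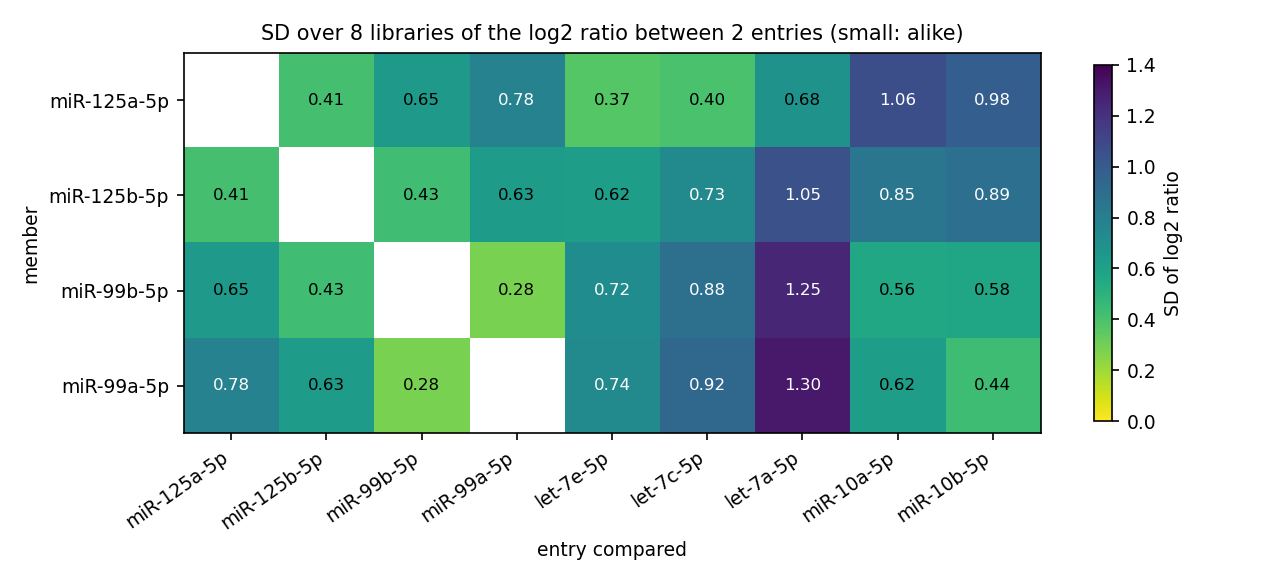
SD over 8 libraries of the log2 ratio between each member in a row and each entry in a column; light cells are alike and white cells are an entry with itself. The smallest value is 0.28, for miR-99a-5p with miR-99b-5p, against 0.65 for the cluster partners miR-125a-5p and miR-99b-5p.

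Outside the families, the entries most like miR-99b-5p were miR-338-3p (SD 0.18), the endothelial miR-126a-3p (0.21) and miR-328-3p (0.25). Those most like the miR-99a-5p entry were miR-145a-3p (0.22), from a mesenchymal miRNA gene, miR-106b-5p (0.22) and miR-126a-3p (0.26). For miR-125a-5p they were miR-671-3p (0.24), miR-423-5p (0.27) and miR-23b-3p (0.28). For miR-125b-5p they were let-7d-3p (0.27), miR-671-3p (0.30) and miR-1964-3p (0.30). The level of miR-126a-3p was 9762 to 13191 CPM in KO libraries and 11632 to 14959 CPM in WT libraries.

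The 3p arms carried little of the signal but tell the Mir125b loci apart. Their RefSeq sequences are shown for that reason, with the seed in capitals.
miR-125b-1-3p, chromosome 9: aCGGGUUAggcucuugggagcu
miR-125b-2-3p, chromosome 16: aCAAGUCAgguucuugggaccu
Counts of miR-125b-1-3p were 6, 17, 0 and 32 in KO libraries 40, 46, 88 and 90, and 8, 9, 10 and 12 in WT libraries 35, 37, 80 and 82. Counts of miR-125b-2-3p were 52, 52, 14 and 82 in KO libraries and 38, 35, 82 and 116 in WT libraries. The chromosome 16 arm had the more counts in each library. The chromosome 9 arm made up 21.6% of both in KO (Wilson 95% interval 17.0 to 27.0, of 255 counts) and 12.6% in WT (9.34 to 16.7, of 310 counts). By library this share was 0% to 28.1% in KO and 9.38% to 20.5% in WT, so the genotypes overlapped. In KO 88 it was 0 of 14 counts, for which the Wilson interval reaches 21.5%. The share speaks of the 3p arms, whose survival can differ between hairpins, and not directly of transcription.

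The other 3p arms were rarer still next to their 5p partner. Over the 8 libraries the 3p arm made up 0.247% of both arms for miR-125a (Wilson 95% interval 0.222 to 0.275), 0.283% for miR-99b (0.2497 to 0.320) and 1.23% for miR-125b with its 2 loci summed (1.13 to 1.33). For miR-99a it was 0.0176% (0.0124 to 0.0250). Counts of miR-99a-3p were 5 in KO 40 and 0 in KO 46, KO 88 and KO 90, against 6, 7, 5 and 8 in WT libraries 35, 37, 80 and 82. Scaled, that is 1.51 CPM in KO 40, against 0.616 to 2.85 CPM in WT libraries, so the groups overlapped. The entry did not pass the filter on low counts and was not tested. A count of 0 allows up to 3 counts, which is 1.41 CPM of the unscaled total in KO 46, 1.15 CPM in KO 88 and 0.464 CPM in KO 90.

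The tested 3p arms did not pass in either comparison. The log2 difference between genotypes, KO minus WT, was 0.50 ± 0.63 for miR-125a-3p, 0.81 ± 0.87 for miR-99b-3p, 0.49 ± 1.16 for miR-125b-1-3p and -0.15 ± 0.61 for miR-125b-2-3p (SE; edgeR adjusted p 0.997 for each). For miR-99b-3p it ran from 0.51 without WT 82 to 1.66 without WT 35, and it was 1.56 in animals 80 to 90 alone. The sign of miR-125b-1-3p and of miR-125b-2-3p turned under other settings. Counts per library were 14 to 87 in KO and 13 to 80 in WT for miR-125a-3p, and 6 to 87 in KO and 9 to 36 in WT for miR-99b-3p.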

How the data were processed

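Small RNA libraries of 4 KO and 4 WT mice were analysed from 1 table, grouped by the sample titles. Per the file headers it holds raw and normalized columns deposited by the authors. Which aligner, genome build and miRNA database were used upstream is not given in the sources used here. Deposited raw columns hold expected counts, since 12.0% of values were not whole (tolerance 1e-06). The deposited normalized columns are a signal, the raw value times 1 factor per library; they were used in limma-trend as log2(value + 1). Expected counts were rounded and filtered with filterByExpr, which left 627 of 1234 entries. Scaling was TMM and the main test edgeR 4.0.16 (quasi-likelihood, genotype only, Benjamini-Hochberg over all tested entries); DESeq2 1.42.0 and limma 3.58.1 were alternatives. SE came from the F statistic. The edgeR procedure was run on simulated counts with a smaller spread between libraries than these data and no difference between number ranges. That run does not show how many genotype differences the test would find here. Ratios used counts plus 0.5 and exact permutation of 70 assignments (scipy 1.17.1); their comparison between number ranges was added after seeing the data.

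The members, lists and tests were chosen with earlier results of these data known, and miR-125b-5p had already been singled out for its small p. Entries with a mean of at least 100 CPM were named with each library's value; the let-7 cluster partners, the miR-10 relatives and the 3 most alike mouse entries of each member were named by rule. Alternatives were no filter, at least 10 counts in 4 libraries, DESeq2 size factors, library totals, a number range term, summed mature names, mouse names only, merged identical sequences (added), each number range or genotype alone, and leaving out each library. The table has no counts of molecular identifiers. Libraries are separate animals, so the tests set differences against the spread between animals. In the test of genotype alone that spread includes the difference between the number ranges.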

Additional observations from a re-analysis of the deposited data

Results flagged for a closer look

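In KO 40, miR-125a-3p stood at 4.22 CPM, far from the other KO libraries at 12.5 to 14.5 CPM. In KO 88, miR-99b-3p stood at 1.93 CPM, against 11.7 to 13.8 CPM in the other KO libraries. These rest on 14 and 6 counts. In all, 22 groups of 4 libraries were examined for a library standing apart, and chance marks about 1 in 20.

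The shared miR-99a/100 sequence went opposite ways in the animal number ranges: KO lay below WT in animals 35 to 46 and above WT in animals 80 to 90. The miR-99a-5p entry had 2504 and 2729 CPM in KO against 3234 and 3262 CPM in WT in animals 35 to 46, and 2890.2 and 3051 CPM in KO against 2111 and 2422 CPM in WT in animals 80 to 90. The interaction of genotype with range was 0.70 ± 0.34 on the log2 scale (edgeR unadjusted p 0.0719, adjusted p 0.930). Of 627 entries the interaction passed in 0, while 30 had an unadjusted p under 0.05 (edgeR), and 2.55% of entries separated the genotypes in the same opposite ways.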

How the results depend on the processing

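The count of 0 entries called between genotypes was the same under each alternative run. The log2 differences KO minus WT of miR-125a-5p, miR-125b-5p and miR-99b-5p kept their sign in each, with ranges of -0.67 to -0.17, -0.83 to -0.39 and -0.35 to -0.17. That of the miR-99a-5p entry (and of the miR-100 entry, which repeats it) was -0.26 in animals 35 to 46 alone and 0.41 in animals 80 to 90 alone. When libraries were left out it was -0.10 to 0.13. For miR-125b-1-3p it was -0.27 with limma-trend and -0.16 to 0.92 with libraries left out. For miR-125b-2-3p it was 0.49 in animals 35 to 46 alone, -0.95 in animals 80 to 90 alone and -0.52 to 0.16 with libraries left out.

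Between the number ranges 203 of 627 entries were called in edgeR, 129 to 222 with libraries left out (129 without WT 37), 98 in KO libraries alone and 2 in WT libraries alone, where fewer samples were fitted. There miR-99b-5p was at -0.0069 and miR-125b-2-3p at 0.24 in WT alone, and the miR-99a-5p entry at 0.22 in KO alone. With libraries left out miR-99b-5p ran from -0.031 to 0.094. The miR-125b-5p call was lost without a filter (0.73, edgeR adjusted p 0.0506). The interaction gave 10 calls without a filter, and the cause was not tested.

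Leaving out libraries moved the log2 ratio difference KO minus WT from -0.39 to 0.12 for miR-125a-5p over miR-99b-5p; it was positive without KO 46 (0.12) and without WT 80 (0.05). Between the ranges it ran from 1.06 to 1.26 for miR-125a-5p over miR-99b-5p, from 0.50 to 1.00 for miR-125b-5p over miR-99a-5p and from -0.76 to -0.47 for miR-125b-5p over miR-125a-5p. With ranges permuted within genotypes the values 1.16 and 0.78 had an exact permutation p of 0.0556, the smallest that these assignments allow. That test cannot pass the threshold, so nothing is concluded from it. No paired analysis was possible because the animal numbers are not shared between genotypes. Depth limits the 3p arms, with 0 to 116 counts per library.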
